A study of Mus musculus with 100 samples.

Results

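Trophectoderm cultures were compared with extraembryonic endoderm cultures made from the same mouse embryonic stem cell lines, both of which carry a homozygous KI allele of Mll4 (now Kmt2d). The comparison rests on 4 of the 100 samples of the series and of its 37 RNA tables, chosen from their titles: the KI lines numbered 27 and 48 (termed clones here) on day 6 of trophectoderm induction (TE), and the same 2 clones on day 5 of extraembryonic endoderm induction (XEN). The genotype of all 4 is Mll3-/-, Mll4 KI/KI. The reference cultures are Mll3-/-, Mll4 flox/flox (2 TE and 2 XEN libraries, replicates 1 and 2), so no culture here had an intact Mll3 (Kmt2c). The labels do not describe the KI change. The title of the series speaks of the methyltransferase activities of MLL3 and MLL4, and the question asked is how these bear on the choice of lineage.

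TE cells were infected with a lentivirus (pCW57.1) that expresses T7-tagged CDX2 under doxycycline. They were grown in serum with medium conditioned by mouse embryonic fibroblasts, 25 ng/mL FGF4, heparin and 1 µg/mL doxycycline. XEN cells had no transgene and were grown in serum with activin A at 10 ng/mL and retinoic acid at 0.1 µM. Lineage, medium, transgene and day (6 or 5) therefore cannot be told apart in any value below. Each clone gave 1 library per lineage, and nothing in the labels says that the flox replicates came from separate cultures, so p-values measure the spread between these libraries. That spread was estimated over KI and flox together. The KI libraries of a group differed more than the flox ones, so KI p-values may be too small.

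Trophectoderm is the outer epithelium of the blastocyst, which forms the placenta. Its identity is set by transcription factors such as CDX2, EOMES, ELF5, TFAP2C and GATA3, and FGF4 from the inner cells keeps its stem cells dividing. Extraembryonic endoderm arises from the primitive endoderm of the inner cell mass under GATA6, GATA4, SOX17 and SOX7. It divides into visceral endoderm, which takes up and secretes nutrients and lipoproteins, and parietal endoderm, which lays down a thick basement membrane. MLL3 and MLL4 methylate histone H3 lysine 4, chiefly at enhancers.

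Levels are gene-level reads scaled to a common library total with TMM factors (CPM), for clone 27 and then clone 48. Gene-level totals were 27.5 and 27.6 M reads in KI TE and 21.3 and 19.8 M in KI XEN, so that 3 reads, the limit that a count of 0 allows, equal 0.107 to 0.154 CPM; such limits cover counting error only. Fold changes are log2 values of TE over XEN with their standard errors, from edgeR's quasi-likelihood test over 4 groups of 2 libraries, and a gene is called at a Benjamini-Hochberg adjusted p under 0.05. Of 15532 genes tested in KI, 9796 (63.1%) were called. Higher in TE were 5015 (32.3%) and lower 4781 (30.8%), and at a change of at least 2-fold as well, 1773 (11.4%) and 2278 (14.7%). The median over all genes tested was 0.03. In flox, 64.7% of the same genes were called, and the test of the difference between the genotypes called 35.3%. Across all genes tested, the fold changes of the 2 clones had a Pearson r of 0.93. With this share called, the size and the samples of a change tell more than the call, and the counts of each gene group below are to be read against these shares. Where the libraries of the 2 lineages are said not to overlap, this describes those libraries. The share of all genes without overlap was not counted.

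Kmt2d RNA was at 177 and 196 CPM in KI TE and 272 and 278 CPM in KI XEN (log2 fold change -0.56 ± 0.06, adjusted p = 9.23e-07), with no overlap between the lineages. Kmt2c RNA, the product of the gene labelled null, was at 45.1 and 52.2 CPM in TE and 32.2 and 42.8 CPM in XEN. Its difference (log2 fold change 0.38 ± 0.13, adjusted p = 0.0233) was not called with the 4 KI libraries alone (adjusted p = 0.0665), without KI TE of clone 48 (0.17) or without KI XEN of clone 27 (0.219). A value per transcript cannot show a deleted exon or an altered residue, so these levels do not check the genotype labels. Of 10 genes of the MLL3/MLL4 complex, 6 were higher in TE, 2 lower and 2 not called, all within 2-fold (median 0.33). The 2 lower were Kmt2d and Kdm6a, a demethylase subunit, and the call of Kdm6a (-0.20 ± 0.08, adjusted p = 0.0453) was lost with DESeq2 (0.0578), with the 4 KI libraries alone (0.0824), without clone 48 in KI TE (0.267) or KI XEN (0.173) and without flox XEN replicate 2, which leaves 1 lower. Pagr1a, a subunit of these complexes, had the widest difference (51.8 and 46.8 CPM in TE and 25.1 and 29.8 CPM in XEN).

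The lineage labels were checked against markers. The 8 trophectoderm markers summed to 5966 and 5646 CPM in KI TE, but also to 5097 and 4256 CPM in KI XEN, where of the 8 only Elf5 was under 1 CPM. In flox these 8 markers summed to 3252 and 3164 CPM in TE and 3268 and 3280 CPM in XEN, so the sum did not separate the lineages there either. The keratin Krt8, given below, is a large part of the KI sums. Of these 8 genes, 5 were higher in TE and 1 lower in KI. The 13 extraembryonic endoderm markers summed to 2781 and 2636 CPM in KI XEN and 612 and 603 CPM in KI TE, with 10 lower in TE and 0 higher. Hnf4a, Afp, Ttr and Apob, which mark visceral endoderm, were under 1 CPM in KI XEN. In flox XEN the same markers summed to 5669 and 5547 CPM. The label of extraembryonic endoderm was thus met in part by the KI cultures, which are called XEN by that label.

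Stem cell markers (6 genes) summed to 256 and 346 CPM in KI TE and 74.2 and 77.6 CPM in KI XEN, against 4123 and 4519 CPM in the undifferentiated KI clones on day 0. The day 0 samples are labelled as polyA RNA and the cultures as total RNA, so their levels are descriptions without a test. Fibroblast markers (3 genes) summed to 19.9 and 29.4 CPM in KI TE and 236 and 387 CPM in KI XEN, and neural markers (3 genes) to 8.25 and 7.54 against 51.9 and 63.5 CPM. Mesoderm markers (4 genes) summed to 46.8 and 93.1 CPM in TE and 38.00 and 55.4 CPM in XEN, and epiblast markers (3 genes) to 88.7 and 91.5 against 16.5 and 11.9 CPM. Markers of blood and endothelium (3 genes) summed to 4.04 and 5.2 CPM in TE and 0.991 and 0.718 CPM in XEN, against 102 and 114 CPM on day 0. Nearly all of these reads were of Pecam1, an endothelial adhesion protein that stem cells also express. It passed the filter and was called as higher in TE. Ptprc, a marker of blood cells, had 0 reads in all 4 KI libraries. In such bulk samples, fewer cells of a type and less RNA per cell cannot be told apart, and the part of these cells in the results below was not tested.

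**Figure D1:**
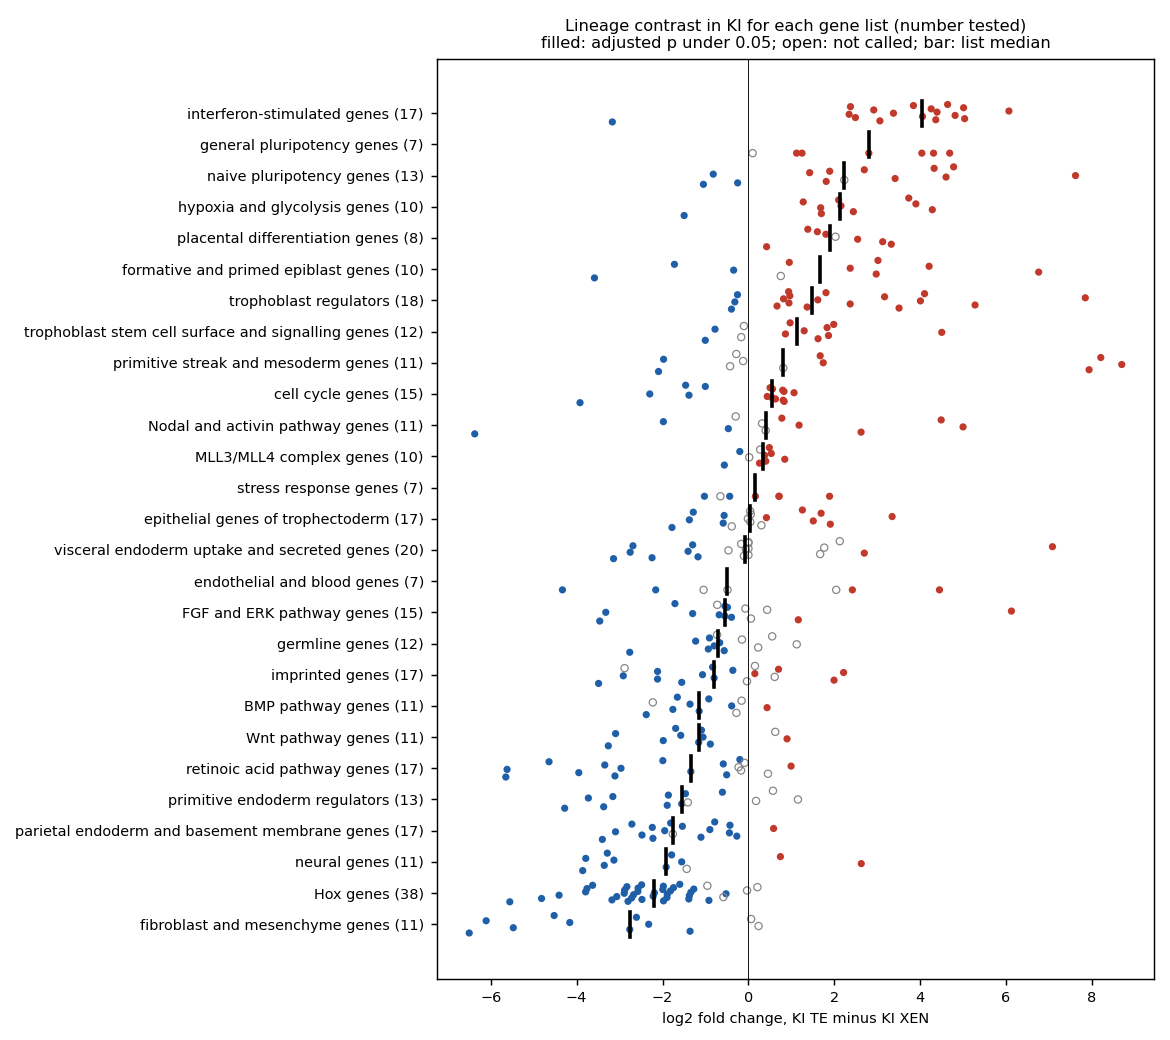
Log2 fold change of KI TE over KI XEN (horizontal axis) for every tested gene of 27 lists, ordered by list median (bars), with filled points called and open points not called. Interferon-stimulated genes have the highest median (4.05) and fibroblast and mesenchyme genes the lowest (-2.76), and genes with few reads, such as those of visceral endoderm near 0, are plotted at their fitted values.

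Regulators of trophoblast were mostly higher in TE. Of 18 measured, 15 were higher, 10 of them at least 2-fold, and 3 (Gata3, Ets2 and Msx2) were lower by less than 2-fold (Ets2 not without KI XEN of clone 27, adjusted p = 0.107), with a list median of 1.49. Cdx2, the factor supplied by the transgene, was at 107 and 101 CPM in TE and 2.26 and 3.13 CPM in XEN (log2 fold change 5.28 ± 0.16, adjusted p = 2.84e-12). Transgenic and endogenous Cdx2 reads cannot be told apart in these tables. The undifferentiated clones had 4.11 and 2.53 CPM, so both KI TE libraries stood far above the XEN and stem cell libraries.

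Tfap2c, an AP-2 factor of the trophoblast, was at 290.4 and 222 CPM in TE and 29.6 and 15.2 CPM in XEN (log2 fold change 3.51 ± 0.35, adjusted p = 7.49e-04). Gata2, which acts with GATA3 in trophoblast, was at 405 and 324 CPM in TE and 47.8 and 32.99 CPM in XEN (log2 fold change 3.17 ± 0.19, adjusted p = 1.27e-05). Ascl2, a factor needed for the spongiotrophoblast, was at 55.8 and 45.1 CPM in TE and 3.92 and 1.90 CPM in XEN (log2 fold change 4.10 ± 0.25, adjusted p = 3.76e-08). For these 3 genes the clones lay in the same order in both lineages, with clone 27 above clone 48, and no XEN library reached a TE library. Hand1, required for trophoblast giant cells, followed (118 and 116 CPM in TE and 25.2 and 19.8 CPM in XEN), and Gcm1, which drives syncytial differentiation, was at 5.96 and 5.94 CPM in TE against 0.708 and 0 CPM in XEN.

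Elf5, which restricts cells to the trophoblast lineage, was at 0.800 and 1.64 CPM in KI TE and had 0 reads in both KI XEN libraries, which makes it at least 16.6-fold higher in TE (3 reads over the group as the floor). In flox TE it was at 15.6 and 18.4 CPM. Eomes, a T-box factor of trophoblast stem cells that is also active in endoderm and mesoderm, was at 22.1 and 32.7 CPM in TE and 8.30 and 9.65 CPM in XEN (log2 fold change 1.61 ± 0.17, adjusted p = 3.07e-06). In flox the order was the opposite, with 17.1 and 18.2 CPM in TE and 59.2 and 60.5 CPM in XEN, and the difference between the genotypes was itself called (3.37 ± 0.23, adjusted p = 3.60e-07).

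Gata3, by contrast, was abundant in both KI lineages, at 66.7 and 59.5 CPM in TE and 80.6 and 69.9 CPM in XEN, from 0.280 and 0.188 CPM in the undifferentiated clones. Its small difference (log2 fold change -0.26 ± 0.09, adjusted p = 0.0276) was lost without KI TE of clone 48 (adjusted p = 0.156) or KI XEN of clone 27 (0.255). Msx2, a homeobox gene, was likewise at 81.5 and 78.8 CPM in TE and 102 and 109 CPM in XEN. The epithelial factor Grhl2 stood at 70.3 and 68.4 CPM in TE and 48.6 and 29.9 CPM in XEN, and its call was lost without KI TE of either clone (adjusted p = 0.0711 and 0.0619).

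**Figure D2:**
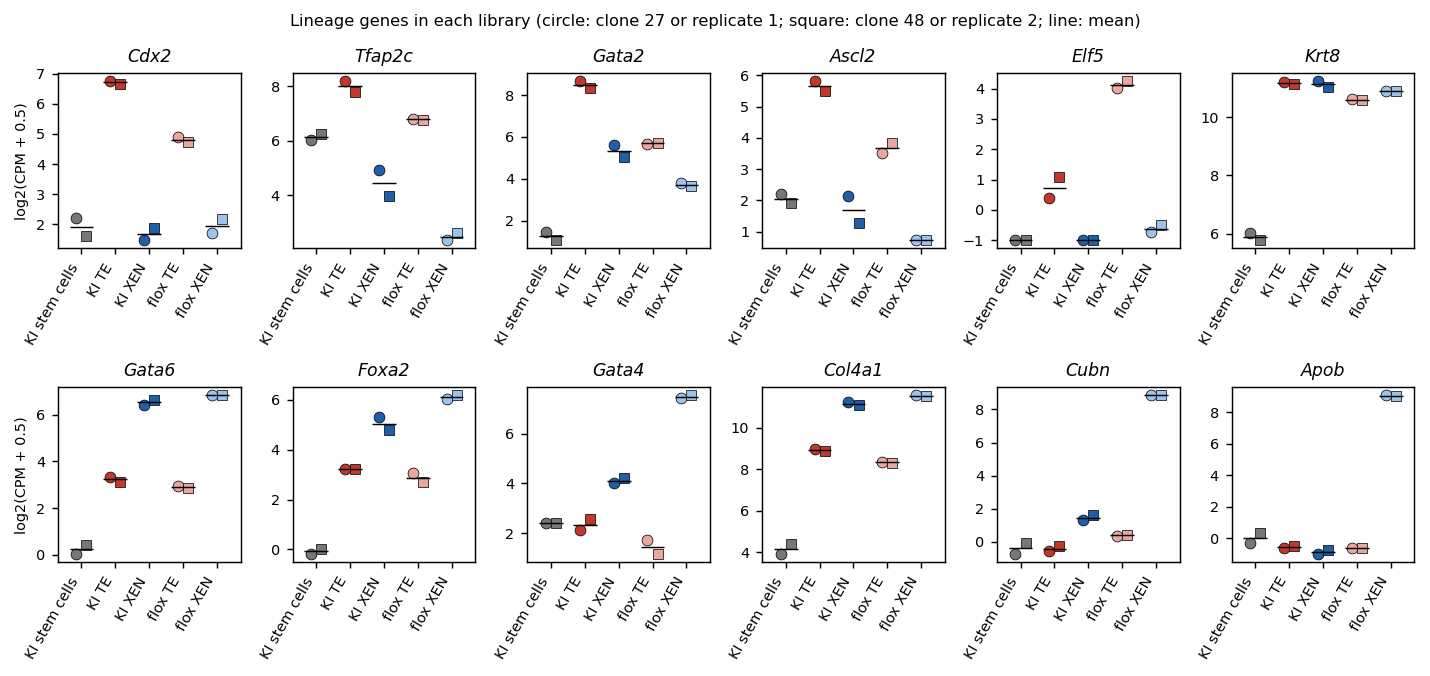
Level of 6 trophectoderm genes (top) and 6 extraembryonic endoderm genes (bottom) in each library as log2(CPM + 0.5), for the KI stem cells, KI TE, KI XEN, flox TE and flox XEN, with each panel on its own vertical scale and a line at each group mean. Cdx2, Tfap2c, Gata2 and Ascl2 are higher in KI TE than in KI XEN, Krt8 overlaps between them, and Cubn and Apob are high in flox XEN alone.

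Of 17 epithelial genes of trophectoderm, 6 were higher in TE, 5 lower and 6 not called, with a median of 0.04. Over all genes 32.3% were higher and 30.8% lower with a median of 0.03, so the counts of this list lie near those of any genes. Krt8, the keratin used most often as a trophectoderm marker, was at 2389.7 and 2287 CPM in TE and 2428 and 2122 CPM in XEN, and the lineages overlapped (log2 fold change 0.04 ± 0.05, adjusted p = 0.53). Cdh1 (E-cadherin) and Cldn4 (a tight junction protein) overlapped too, at 1269 and 1232 against 1364 and 1063 CPM and at 956 and 921 against 1103 and 789 CPM. In all 17 genes clone 27 was above clone 48 in XEN, against 8 of 17 in TE, and single libraries decided both call and direction. Without KI XEN of clone 27, Krt7, Krt8, Cdh1 and Cldn4 were called as higher in TE (adjusted p = 6.96e-08, 0.00597, 1.90e-04 and 4.91e-04). Without KI XEN of clone 48, Cdh1, Cldn4 and Ocln (occludin) were called as lower (0.00911, 4.38e-04 and 0.00272), and Ocln also without KI TE of clone 48 (0.0409).

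Higher in TE were Epcam, an epithelial adhesion protein, at 374 and 364 CPM in TE and 142 and 86.1 CPM in XEN, and Aqp3, a water and glycerol channel of the trophectoderm, at 18.9 and 22.4 CPM in TE and 2.64 and 1.39 CPM in XEN (log2 fold change 3.35 ± 0.25, adjusted p = 2.73e-08). Cldn7, Lcp1, Ezr and Krt18 were also higher (1.51, 1.91, 1.26 and 0.42). Lower in TE were Cdh3 (P-cadherin), Perp (a desmosome protein), Cldn6, Dsp and Krt19, with log2 fold changes from -1.78 to -0.57. Perp, for example, was at 166 and 167 CPM in TE and 459 and 405 CPM in XEN.

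Surface and signalling genes of trophoblast stem cells were more often higher in TE (8 of 12 measured, 2 lower, 2 not called, median 1.13). Fgfbp1, which releases bound FGF, had the widest difference, at 25.6 and 25.8 CPM in TE and 1.32 and 0.923 CPM in XEN (log2 fold change 4.50 ± 0.19, adjusted p = 8.54e-11). Fgfr2, the receptor through which FGF4 acts on these cells, went the other way, at 57.9 and 52.2 CPM in TE and 101 and 88.04 CPM in XEN (log2 fold change -0.78 ± 0.08, adjusted p = 9.05e-07). Bmp8b, Wnt7b and Plet1, a surface protein of trophoblast progenitors, were higher in TE (0.86, 1.30 and 1.83), while Bmp4 and Wnt6 were not called (-0.17 and -0.10). Bmp4 was called as lower without KI TE of clone 48 (adjusted p = 0.0277) or KI XEN of clone 27 (0.0242). Rhox6 and Rhox9, X-linked homeobox genes of the placenta, stood at 489.5 and 384 CPM in TE and 172 and 112 CPM in XEN and at 488 and 407 CPM in TE and 152 and 93.8 CPM in XEN; they are close copies, so how their reads divide is uncertain.

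Genes of the differentiated placenta were measured for 16 listed members, of which 8 passed the filter on low counts. The 8 that did not pass (4 prolactin family genes, Tpbpa, Ctsq, Ctsj and Ctsr) had at most 14 reads in a KI lineage. Among the 8 that passed, 7 were higher in TE and 1 was not called, which is not a share of all members. Their median was 1.91, or 2.71 without KI XEN of clone 27. The 7 higher became 6 without either KI TE library and 5 without KI XEN of clone 48. Pcdh12, a protocadherin, was lost without KI TE of clone 27 (adjusted p = 0.162) or either KI XEN library (0.0569 and 0.068). Flt1, a receptor of VEGF, was lost without clone 48 in KI TE (0.112) or KI XEN (0.0943). Slc16a3, a lactate transporter, was at 381 and 384 CPM in TE and 39.3 and 36.99 CPM in XEN (log2 fold change 3.33 ± 0.07, adjusted p = 1.00e-13), and Plac1, a placental protein, was at 43.1 and 30.3 CPM in TE and 8.40 and 4.11 CPM in XEN. Syna, an envelope gene of retroviral origin that fuses the syncytiotrophoblast, was at 5.02 and 6.76 CPM in TE and 2.12 and 1.23 CPM in XEN.

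The regulators of primitive endoderm lay on the side of XEN. Of 13, 9 were lower in TE, 8 of them at least 2-fold, 0 were higher and 4 were not called (median -1.55, or -1.47 with Hnf4a at its bound). Gata6, the first factor of the lineage, was at 9.64 and 8.15 CPM in TE and 86.1 and 97.8 CPM in XEN (log2 fold change -3.37 ± 0.10, adjusted p = 3.46e-12). Foxa2, a forkhead factor of endoderm, was at 8.95 and 8.79 CPM in TE and 38.7 and 27.04 CPM in XEN (log2 fold change -1.89 ± 0.17, adjusted p = 9.17e-07), and its relative Foxa1 at 0.909 and 1.42 CPM in TE and 18.4 and 12.6 CPM in XEN. None of these TE values reached a XEN value.

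Gata4 was at 3.82 and 5.37 CPM in TE and 15.6 and 17.96 CPM in XEN (log2 fold change -1.86 ± 0.18, adjusted p = 2.44e-06), beside 4.81 and 4.74 CPM in the undifferentiated clones and 175 and 189 CPM in flox XEN. Sox17 was at 3.02 and 4.77 CPM in TE and 11.3 and 11.6 CPM in XEN, and Sox7 at 0.218 and 0.285 CPM in TE and 2.17 and 2.41 CPM in XEN. For Gata4, Sox17 and Sox7 the lineage contrast was narrower in KI than in flox by 4.48, 1.87 and 3.11 on the log2 scale (adjusted p = 3.29e-07, 1.27e-04 and 0.00144), and for Gata6 by 0.65 (0.00345). Hnf4a, the master regulator of visceral endoderm, had 4 reads over both KI XEN libraries and 0 in KI TE, where flox XEN had 27.99 and 26.7 CPM; its call in KI was lost without any of the 4 KI libraries. Without KI TE of clone 27 Foxa3 was called as higher in TE (adjusted p = 0.0133), and Foxq1 was not called (0.101). The call of Foxq1 was also lost without KI TE of clone 48 (0.052) or KI XEN of clone 27 (0.0703). In flox all 13 regulators were lower in TE, where 64.7% of all genes were called in either direction.

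Genes by which visceral endoderm takes up and secretes proteins and lipids were in part too low in KI for a direction. Of 20 measured, 2 were higher in TE, 7 lower and 11 not called, with a median of -0.08 (-0.47 with genes at 0 reads placed at their bounds), where flox had 2 higher and 16 lower and a median of -5.45. In a fit of the 4 KI libraries alone, whose filter left 11 of the genes, the median was -1.32. Without KI XEN of clone 27 the 7 lower became 4, since Afp, Amn and Soat2 were not called (adjusted p = 0.0731, 0.0551 and 0.0524). Each was also lost in another setting: Afp and Amn with the 4 KI libraries alone, Afp without KI TE of clone 48 and Soat2 without KI TE of clone 27. The 2 higher in flox, Apoe and Fgg, were both not called without flox XEN replicate 1, and Apoe also not without flox TE replicate 1 or flox XEN replicate 2. Of the 20, 11 were under 1 CPM in all 4 KI libraries. Ttr, Apoa4, Spink1 and Fgb had 0 reads in all 4 KI libraries, and Apob, the main lipoprotein of the yolk sac, had 10 reads over KI TE and 2 over KI XEN, against 542 and 519.8 CPM in flox XEN. Without KI XEN of clone 48 Apob was called as higher in TE on these few reads (log2 fold change 5.13).

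Cubn (cubilin), the uptake receptor of visceral endoderm, was at 0.182 and 0.320 CPM in TE and 1.98 and 2.56 CPM in XEN (log2 fold change -3.14 ± 0.25, adjusted p = 5.80e-08), and at 465 and 467 CPM in flox XEN. Its partner Lrp2 (megalin) was abundant in both KI lineages, at 330.3 and 421 CPM in TE and 897 and 951 CPM in XEN (log2 fold change -1.30 ± 0.10, adjusted p = 2.26e-05). Dab2, the adaptor of both receptors, was not called in KI (65.5 and 79.4 CPM in TE and 75.7 and 80.3 CPM in XEN, adjusted p = 0.337, or 0.0153 and lower in TE without KI TE of clone 48), and in flox it was 52.3 and 60.9 against 400.1 and 398 CPM. Rbp4 and Trf (transferrin), both secreted carriers, were lower in TE (-2.24 ± 0.29 and -2.69 ± 0.34). Apoe went the other way, at 236 and 388 CPM in TE and 46.1 and 50.2 CPM in XEN, with 798 and 786 CPM in the undifferentiated clones, and Fgg, a fibrinogen chain, was at least 9.76-fold higher in TE, where it was at 0.364 and 1.07 CPM.

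Parietal endoderm and basement membrane genes were nearly all on the side of XEN. Of 17, 15 were lower in TE, 10 of them at least 2-fold, 1 (Pth1r) was higher and 1 (Srgn) not called, with a median of -1.76. Col4a1, the type IV collagen of basement membranes, was at 504 and 475 CPM in TE and 2409 and 2166 CPM in XEN (log2 fold change -2.22 ± 0.05, adjusted p = 8.88e-13). Lama1, a laminin chain of the earliest basement membranes, was at 12.2 and 16.5 CPM in TE and 115 and 189 CPM in XEN (log2 fold change -3.40 ± 0.33, adjusted p = 8.94e-04), and Sparc, a matrix protein made in bulk by parietal endoderm, at 426 and 474 CPM in TE and 1216 and 1399 CPM in XEN. Pdgfra, the growth factor receptor of primitive endoderm, was at 4.11 and 3.95 CPM in TE and 26.7 and 42.3 CPM in XEN. The XEN libraries were higher in all 4, and clone 48 was above clone 27 in XEN in Lama1, Sparc and Pdgfra but not in Col4a1. Srgn, a proteoglycan core protein, had 4 reads over the 4 KI libraries beside 36.6 and 37.7 CPM in flox XEN. The call of Pth1r, the parathyroid hormone receptor of parietal endoderm (17.02 and 11.99 CPM in TE and 11.8 and 7.39 CPM in XEN), was lost under 9 of the alternatives tried.

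Pluripotency genes were higher in TE. Of 13 naive genes 9 were higher in TE, all at least 2-fold, 3 lower and 1 not called (median 2.23, or 2.96 without KI XEN of clone 48), and of 7 general pluripotency genes 6 were higher and 1 was not called (median 2.80). Pou5f1 (OCT4) was at 62.6 and 108 CPM in TE and 4.15 and 6.31 CPM in XEN (log2 fold change 4.04 ± 0.38, adjusted p = 4.78e-04), against 1532 and 1596 CPM on day 0. Nanog was at 14.4 and 28.1 CPM in TE and 1.32 and 0.770 CPM in XEN (log2 fold change 4.32 ± 0.45, adjusted p = 1.84e-04), against 399.9 and 456 CPM. Esrrb, an orphan nuclear receptor that is also active in trophoblast stem cells, was at 81.9 and 87.8 CPM in TE and 3.30 and 3.69 CPM in XEN (log2 fold change 4.60 ± 0.12, adjusted p = 5.62e-13), against 681 and 750.0 CPM.

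All 13 naive genes and 6 of the 7 general genes were higher in clone 48 than in clone 27 in TE; the TE libraries still lay above both XEN libraries for Pou5f1, Nanog and Esrrb. Tcl1, a kinase coactivator, was at 0.873 and 1.21 CPM in TE with 0 reads in XEN, at least 14.1-fold higher. Dppa3, a maternal and germline factor, had 83 reads over TE and 2 over XEN, a ratio of 30.4, 95% exact counting interval 8.15 to 255. Klf4, Tbx3 and Klf5 were lower in TE (-0.82, -1.05 and -0.25), of which Tbx3, also an endoderm gene, was at 51.6 and 59.9 CPM in TE and 98.3 and 132 CPM in XEN; the call of Klf5 was lost without clone 27 in TE (adjusted p = 0.133) or in XEN (0.164).

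Formative and primed epiblast genes were 6 higher, 3 lower and 1 not called of 10 (median 1.66, or 0.93 over the 9 genes left with the 4 KI libraries alone). Of the 6, Fgf15 was at 0.145 and 0.996 CPM in TE with 0 reads in XEN (adjusted p = 0.0344). Its call was lost without KI TE of clone 48 (0.2), either KI XEN library (0.0835 and 0.0789) or either flox XEN library (0.0556 and 0.0544). It did not pass the filter with the 4 KI libraries alone. Zic5, not called, was higher without KI TE of clone 27 (0.00172). Utf1 was at 80.7 and 78.7 CPM in TE and 5.61 and 2.92 CPM in XEN, Dnmt3b, a DNA methyltransferase, at 122 and 113 CPM in TE and 24.8 and 20.6 CPM in XEN, and Pou3f1, a POU factor of the epiblast, at 86.2 and 85.8 CPM in TE and 12.4 and 8.72 CPM in XEN. Otx2, which is also needed in visceral endoderm, was at 2.00 and 4.24 CPM in TE and 0.519 and 0.257 CPM in XEN in KI and at 3.75 and 5.16 CPM in TE against 18.4 and 17.3 CPM in XEN in flox, a difference between the genotypes of 4.97 ± 0.55 (adjusted p = 1.53e-05). Fgf5 and Lef1 were lower in KI TE, Lef1, a nuclear partner of beta-catenin, at 4.40 and 5.12 CPM in TE and 47.5 and 67.1 CPM in XEN.

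Genes of the primitive streak and early mesoderm included Fgf8 and T, both among the 12 genes with the widest rise in TE. Of 14 listed, 11 passed the filter, and of these 5 were higher, 2 lower and 4 not called. T (brachyury), the T-box factor that marks the streak, was at 34.4 and 76.3 CPM in TE and 0.141 and 0.308 CPM in XEN (log2 fold change 7.93 ± 0.78, adjusted p = 3.25e-04). Fgf8, an FGF made by the streak, was at 9.16 and 22.9 CPM in TE and had 2 reads over XEN, a ratio of 328, 95% exact counting interval 90.6 to 2714. Msgn1, a factor of presomitic mesoderm, was at 1.38 and 3.02 CPM in TE with 0 reads in XEN, at least 30.00-fold higher. Clone 48 was above clone 27 in TE in all 11 genes that passed, by more than 2-fold for T, Fgf8 and Msgn1. Both TE libraries lay above both XEN libraries for these 3 genes, which for T and Fgf8 was a condition of being among the 12.

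Mixl1 and Tbx6, other streak and mesoderm factors, were at 1.75 and 3.38 and at 0.873 and 1.96 CPM in TE, and their calls were lost without KI TE of clone 48 (adjusted p = 0.103 and 0.202), that of Tbx6 also without KI XEN of clone 48 (0.09). Without KI TE of clone 48 the ligand Wnt3 was called as lower (0.00598), so that 3 genes were higher and 3 lower; Wnt3 was also called as lower with the clone as a block (0.0436) and with no filter (0.0381). The list median was 0.81 with all libraries and -0.25 without KI TE of clone 48, so its direction rests on that library; it was 1.40 without KI TE of clone 27, and 1.65 over the 9 genes left with the 4 KI libraries alone. Twist1 and Foxf1, mesodermal factors of later stages, were lower in TE, Twist1 at 10.4 and 12.7 CPM in TE and 37.1 and 54.2 CPM in XEN (log2 fold change -1.98 ± 0.17, adjusted p = 3.29e-07). A pair of other FGF genes was also among the widest rises: Fgf4 was at 3.89 and 10.5 CPM in TE and 0.0943 and 0.103 CPM in XEN and Fgf17 at 3.49 and 9.36 CPM in TE and 0.236 and 0 CPM in XEN. FGF4 was also added to the TE medium as a protein, which leaves no reads.

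Genes of the retinoic acid pathway were lower in TE, the lineage to which no retinoic acid was added. Of 17, 1 was higher, 12 lower (9 at least 2-fold) and 4 not called, with a median of -1.34. Among receptors, Rarb, itself a direct target of retinoic acid, was at 3.49 and 2.42 CPM in TE and 53.7 and 37.6 CPM in XEN (log2 fold change -3.95 ± 0.20, adjusted p = 4.16e-09), and Rara at 23.02 and 25.7 CPM in TE and 59.3 and 64.3 CPM in XEN. Among enzymes that degrade retinoic acid, Cyp26a1 was at 2.94 and 9.79 CPM in TE and 61.2 and 68.8 CPM in XEN (log2 fold change -3.35 ± 0.49, adjusted p = 0.00407) and Cyp26b1 at 1.60 and 1.46 CPM in TE and 43.9 and 32.7 CPM in XEN. Stra8, named for its induction by retinoic acid, was at 0.436 and 0.213 CPM in TE and 16.98 and 16.1 CPM in XEN, and Stra6, a retinol transporter, at 0.218 and 0.0712 CPM in TE and 6.13 and 8.57 CPM in XEN. For each of these genes both XEN libraries lay above both TE libraries. Cdx1 was the 1 member higher in TE (17.7 and 23.6 CPM in TE and 9.06 and 11.8 CPM in XEN). Tgm2 (a transglutaminase) was also called as higher with the clone as a block (adjusted p = 0.027) and without KI XEN of clone 27 (5.04e-05), and the call of the receptor Rarg, at -0.20, was lost without clone 27 in KI TE (0.0944) or KI XEN (0.0961).

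Promoters of Rarb and Cyp26a1 hold the direct repeat bound by retinoic acid receptors, and they are shown because these genes had wide differences between the lineages. Windows from 250 bases before to 50 bases after the start of a gene were taken from RefSeq (GRCm38.p6), and the letters GTTCA, 5 bases of any kind and AGTTCA were searched on both strands after the results were known. They were found in 11 of 32851 promoters (0.0335%), in 2 of the 13 pathway genes with a promoter in the table and in 0 of 22 Hox genes. The 2 sites are at chr14:16575493-16575548, minus strand, for Rarb and at chr19:37697756-37697811, plus strand, for Cyp26a1, printed 5′ to 3′ on the gene's strand with 20 bases on each side and the match in capitals.
Rarb: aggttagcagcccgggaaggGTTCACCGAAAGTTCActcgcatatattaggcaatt
Cyp26a1: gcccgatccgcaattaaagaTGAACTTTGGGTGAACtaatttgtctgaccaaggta
The Cyp26a1 match is on the other strand. A match is a description of the letters, and binding was not measured here.

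Hox genes, whose order along each cluster follows their order of use along the body axis, were lower in TE almost throughout. Of 39, 38 passed the filter, and of these 34 were lower, 32 of them at least 2-fold, 0 higher and 4 (Hoxa13, Hoxb1, Hoxc6 and Hoxd9) not called, with a median of -2.20. With the clone as a block 32 were lower, since Hoxa11 and Hoxd8 (adjusted p = 0.0578 and 0.0505) were not called; both were also lost with DESeq2 (0.0615 and 0.0822), with sums over transcripts and without some single libraries. Hoxa6 was lost without KI XEN of clone 48 (0.0537), and Hoxd11 without that library or either KI TE library. Hoxa5 was at 0.873 and 1.81 CPM in TE and 64.2 and 63.2 CPM in XEN (log2 fold change -5.56 ± 0.20, adjusted p = 3.36e-11), Hoxb9 at 11.02 and 9.71 CPM in TE and 64.6 and 72.03 CPM in XEN (log2 fold change -2.72 ± 0.11, adjusted p = 5.69e-11), and Hoxd13, at the far end of its cluster, at 1.02 and 1.03 CPM in TE and 7.08 and 8.11 CPM in XEN. Genes of all 4 clusters were among the 34. Meis1 and Meis2, cofactors of HOX proteins, were lower in TE as well, Meis1 at 18.04 and 16.4 CPM in TE and 126 and 143 CPM in XEN. In flox, 29 Hox genes were lower and 1 (Hoxd9) higher, the latter not with DESeq2, without flox TE replicate 1 or without either flox XEN library. The difference between the genotypes was called for 11 of the 38, against 35.3% of all genes, 6 with a higher and 5 with a lower ratio in KI (3 to 6 and 2 to 6 with 1 library left out). Hoxb9 had the smaller fall in KI (2.40 ± 0.20, adjusted p = 5.36e-07), with 1.20 and 1.23 CPM in flox TE.

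**Figure D3:**
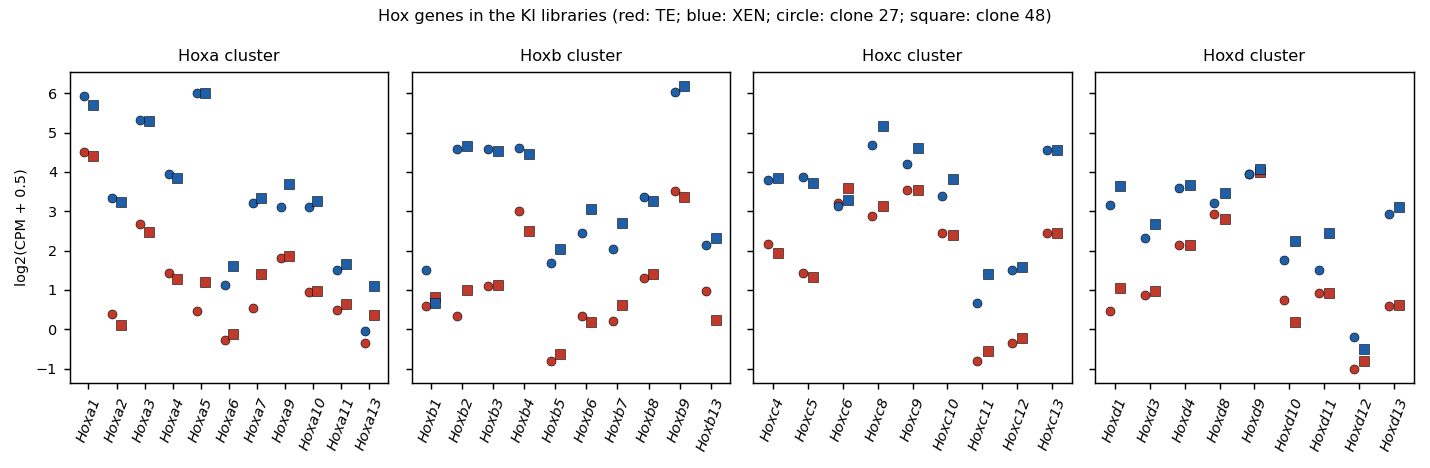
Level of 39 Hox genes in each KI library as log2(CPM + 0.5), by cluster and in order along it, with TE in red, XEN in blue, circles for clone 27 and squares for clone 48. XEN lies above TE for nearly every gene, except at Hoxa13, Hoxb1, Hoxc6 and Hoxd9, where the lineages overlap. Hoxd12 did not pass the filter on low counts.

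Neural and mesenchymal genes were also on the side of XEN. Of 11 neural genes that passed the filter, 8 were lower in TE, 2 higher and 1 not called (median -1.92, or -3.13 without KI TE of clone 48, and -2.54 over the 10 genes left with the 4 KI libraries alone). Nes (nestin), an intermediate filament of progenitors, was at 28.6 and 34.4 CPM in TE and 412 and 502 CPM in XEN (log2 fold change -3.86 ± 0.11, adjusted p = 1.48e-09), and Tubb3, a neuronal tubulin, at 5.49 and 3.84 CPM in TE and 43.8 and 51.9 CPM in XEN. Sox1, the earliest neural SOX factor, was higher in TE, at 1.89 and 2.42 CPM in TE and 0.283 and 0.410 CPM in XEN. The other gene called as higher, Sox3 (0.74 ± 0.28, adjusted p = 0.0295), was lost with the 4 KI libraries alone (0.106), without KI TE of clone 48 (0.253) or KI XEN of clone 27 (0.248) and without either flox XEN library (0.0531 and 0.0551), which leaves Sox1.

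Of 11 fibroblast and mesenchyme genes, 9 were lower in TE and 2 not called (median -2.76). Acta2, the smooth muscle actin, was at 30.4 and 33.8 CPM in TE and 1959 and 2469.7 CPM in XEN (log2 fold change -6.11 ± 0.14, adjusted p = 7.56e-08), and Tagln (transgelin) at 92.2 and 119.6 CPM in TE and 2235 and 2639 CPM in XEN, where the undifferentiated clones had 1.96 and 1.83 and 2.71 and 2.25 CPM. Col3a1, a fibrillar collagen, was at 2.11 and 1.67 CPM in TE and 146 and 197 CPM in XEN (log2 fold change -6.50 ± 0.23, adjusted p = 4.19e-07). Clone 48 was above clone 27 in XEN in all 11 genes, and no TE library reached a XEN library for Acta2 or Tagln. The same held for Col3a1, where it was a condition of being among the genes with the widest fall. Col1a1 was at 16.2 and 26.9 CPM in TE and 83.1 and 180.4 CPM in XEN, and its call was lost without KI TE of clone 27 (adjusted p = 0.0573). Col1a2 was not called, at 40.04 and 75.7 CPM in TE and 46.8 and 51.6 CPM in XEN, but it was higher in TE without KI TE of clone 27 (adjusted p = 6.65e-06) and lower without KI TE of clone 48 (0.00567). Flox showed similar directions, with 9 lower and 1 higher.

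Signalling pathways were read through their targets and inhibitors, against 32.3% of all genes higher in TE and 30.8% lower. For Wnt, 9 of 11 genes were lower in TE, 1 higher and 1 not called (median -1.16). Axin2, the usual readout of beta-catenin activity, was at 36.1 and 42.8 CPM in TE and 75.9 and 100.4 CPM in XEN (log2 fold change -1.16 ± 0.13, adjusted p = 8.31e-06), and Nkd1, a feedback inhibitor, at 6.11 and 8.65 CPM in TE and 49.3 and 76.96 CPM in XEN. Wnt11, a ligand, was at 3.09 and 2.88 CPM in TE and 25.7 and 31.8 CPM in XEN. Dkk1, a secreted inhibitor, was the member that was higher (20.8 and 29.1 CPM in TE and 11.4 and 15.4 CPM in XEN). Sp5, a target shared with the streak, was not called (21.8 and 40.1 CPM in TE and 17.3 and 22.9 CPM in XEN), but was called as higher with the clone as a block (adjusted p = 0.00187), with DESeq2 (0.0205) and without KI TE of clone 27 (2.12e-04).

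For BMP, 7 of 11 genes were lower in TE, 1 higher and 3 not called (median -1.15). With the clone as a block 8 were lower, since Grem1 was called (log2 fold change -2.31, adjusted p = 0.047). Grem1 was also called as lower without KI TE of clone 48 (-4.23) or KI XEN of clone 27 (-2.95), and Nog without KI TE of clone 48 (-0.68). Id3, an early target, was at 96.9 and 80.5 CPM in TE and 254 and 305 CPM in XEN (log2 fold change -1.65 ± 0.11, adjusted p = 4.96e-07), Msx1, a homeobox target, at 11.4 and 18.8 CPM in TE and 60.8 and 96.9 CPM in XEN, and the ligand Bmp2 at 8.22 and 9.36 CPM in TE and 20.8 and 24.4 CPM in XEN. The 1 higher was the ligand Bmp7 (0.43 ± 0.13, adjusted p = 0.00741), whose call was lost without KI TE of clone 27 (0.121), leaving 0 higher. That of the pseudoreceptor Bambi, lower in TE, was lost without the same library (0.063), without clone 48 in KI TE (0.0796) or KI XEN (0.29) and with the 4 KI libraries alone (0.0628).

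For FGF and ERK, 9 of 15 were lower, 2 higher and 4 not called (median -0.55). Egr1, an immediate early gene, was at 9.49 and 10.03 CPM in TE and 101 and 114 CPM in XEN (log2 fold change -3.46 ± 0.12, adjusted p = 1.08e-11), and Dusp6, which dephosphorylates ERK, at 26.9 and 45.6 CPM in TE and 105 and 133 CPM in XEN, with both XEN libraries higher although FGF4 was added to TE. Fgfr1 was higher in TE (583 and 577 CPM in TE and 268 and 251 CPM in XEN). Without KI TE of clone 27, 4 genes were higher and 7 lower: Etv5 and Spry4 were called as higher (adjusted p = 0.00906 and 0.00497) and Il17rd as lower (0.0204), while Spry2, Spred1 and Etv4 were not called (0.0526, 0.15 and 0.18). Etv5, an ETS factor, was called as lower without KI TE of clone 48 (0.0101), so its direction rests on single libraries. With the clone as a block Spry4 was called as higher (0.0458) and Il17rd as lower (9.07e-08).

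For Nodal and activin, 5 of 11 genes were higher in TE, 3 lower and 3 not called (median 0.40). Over all genes 32.3% were higher and 30.8% lower, so the counts of this list lie not far from those of any genes. Lefty2, a target and inhibitor of Nodal, was at 7.89 and 22.3 CPM in TE and 0.330 and 0.616 CPM in XEN (log2 fold change 5.00 ± 0.73, adjusted p = 0.00123), and Gdf3, a ligand of stem cells, at 3.78 and 5.27 CPM in TE and 0.189 and 0.205 CPM in XEN. Inhba, the subunit of activin A, was at 0.145 and 0.0712 CPM in TE and 10.2 and 8.52 CPM in XEN (log2 fold change -6.37 ± 0.40, adjusted p = 5.41e-09), and Skil, a repressor induced by activin, at 53.6 and 62.5 CPM in TE and 225 and 233 CPM in XEN, both higher in XEN. Nodal itself overlapped between the lineages (10.5 and 19.6 CPM in TE and 13.2 and 10.9 CPM in XEN) and was called as higher in TE without KI TE of clone 27 (adjusted p = 6.77e-04).

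Interferon-stimulated genes had the highest median of the 27 lists. Of 18 listed, 17 passed the filter, and of these 16 were higher in TE, all at least 2-fold, and 1 (Cxcl10) was lower, with a median of 4.05. The 18 genes together summed to 1959 and 2020.5 CPM in KI TE and 302 and 179 CPM in KI XEN. In the undifferentiated clones the sums were 170.5 and 175 CPM, and in flox TE 371 and 374 CPM. TE cells carried a lentivirus and XEN cells did not, so lineage and infection cannot be told apart.

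Some of these genes share a promoter element, which is shown here because the group moved together. The interferon-stimulated response element, searched as GAAA, 2 bases of any kind and GAAA on both strands, was in 1131 of 32851 RefSeq promoters (3.44%) and in 8 of the 13 listed genes with a promoter in the table (Ifit1, Ifit3, Isg15, Stat2, Ifih1, Bst2, Rsad2 and Cxcl10, the last of which was lower in TE). Those of Isg15 (chr4:156200855-156200916, minus strand) and Ifit1 (chr19:34640765-34640833, plus strand) are printed 5′ to 3′ on the gene's strand in build GRCm38.p6, with matches in capitals. Matches that overlap are joined.
Isg15: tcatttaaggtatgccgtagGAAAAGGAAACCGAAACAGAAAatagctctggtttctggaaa
Ifit1: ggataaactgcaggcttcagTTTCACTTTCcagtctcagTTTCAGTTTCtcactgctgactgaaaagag
The Ifit1 matches are on the other strand, and as before a match is a description of letters.

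Isg15, a ubiquitin-like protein, was at 112 and 124 CPM in TE and 9.24 and 2.98 CPM in XEN (log2 fold change 4.25 ± 0.43, adjusted p = 5.40e-04). Ifit1, which binds foreign RNA, was at 46.2 and 58.5 CPM in TE and 2.03 and 1.13 CPM in XEN (log2 fold change 5.03 ± 0.22, adjusted p = 1.09e-10). Irf7, a regulator of interferon genes, was at 91.05 and 87.2 CPM in TE and 5.14 and 1.08 CPM in XEN. In 15 of the 17 genes the XEN library of clone 27 was above that of clone 48, whereas in TE 3 of 17 were, and the median change was 3.26 in clone 27 and 4.50 in clone 48.

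The signal transducer Stat2 was at 254 and 255 CPM in TE and 28.7 and 20.3 CPM in XEN. Bst2 (tetherin), which holds budding virus at the cell surface, was at 707 and 666 CPM in TE and 53.6 and 28.9 CPM in XEN, and Rsad2 (viperin) at 158 and 169 CPM in TE and 15.99 and 6.62 CPM in XEN. Ifit3 and its close copy Ifit3b, between which reads may be divided wrongly, had log2 fold changes of 6.06 ± 0.33 and 6.24 ± 0.65. Oas2, which makes the activator of RNase L, was at 4.29 and 5.87 CPM in TE with 2 reads over XEN, a ratio of 104, 95% exact counting interval 28.4 to 859. Mx2, an antiviral GTPase, was at 22.2 and 26.8 CPM in TE and 0.802 and 0.205 CPM in XEN, and Ifi44 at 4.22 and 6.01 CPM in TE and 0.189 and 0 CPM in XEN. Cxcl10, a chemokine, was at 9.35 and 11.2 CPM in TE and 114 and 70.8 CPM in XEN (log2 fold change -3.17 ± 0.23, adjusted p = 9.35e-06). In flox 14 of the 17 were higher in TE and 2 lower, with a median of 2.44, the lower ones being Cxcl10 and Samd9l, the latter not called with the 4 flox libraries alone or without flox TE replicate 2 or flox XEN replicate 2. Of the 14, Irf7 and Rsad2 were not called with no filter, which leaves 12. Irf7, Isg15 and Rsad2 were not called with the replicate block, which leaves 11, or without either flox XEN library. The difference between the genotypes was called for 8 of the 17, against 35.3% of all genes. Of these, 7 had the higher ratio in KI and 1 the lower (5 to 12 and 0 to 2 with 1 library left out, the 12 without KI XEN of clone 27).

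Genes of hypoxia and glycolysis rose with TE too. Of 10, 9 were higher, all at least 2-fold, and 1 (Adm) lower, with a median of 2.13. Bnip3, a mitochondrial protein induced by HIF, was at 241 and 244 CPM in TE and 18.1 and 18.4 CPM in XEN (log2 fold change 3.73 ± 0.07, adjusted p = 9.66e-14), and Egln3, which marks HIF for destruction, at 55.6 and 58.4 CPM in TE and 2.88 and 2.98 CPM in XEN. Vegfa, the endothelial growth factor, was at 229 and 238 CPM in TE and 44.5 and 41.4 CPM in XEN. Slc2a1, a glucose transporter, was at 3119 and 3032 CPM in TE and 1039 and 857 CPM in XEN, and Ldha, lactate dehydrogenase, at 1073 and 1048 CPM in TE and 244 and 251 CPM in XEN (log2 fold change 2.10 ± 0.04, adjusted p = 1.00e-13). For Ldha and Hk2 the contrast differed from flox by 1.99 ± 0.06 and 2.08 ± 0.08 (adjusted p = 3.41e-11 and 2.91e-10), and in flox Hk2 was lower in TE (151 and 156 against 269 and 266 CPM). The letters ACGTG, the core of the HIF site, were in 7 of 9 of these promoters and in 6447 (19.6%) of all. The oxygen and density of the cultures are not given in the sources used here.

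**Figure D4:**
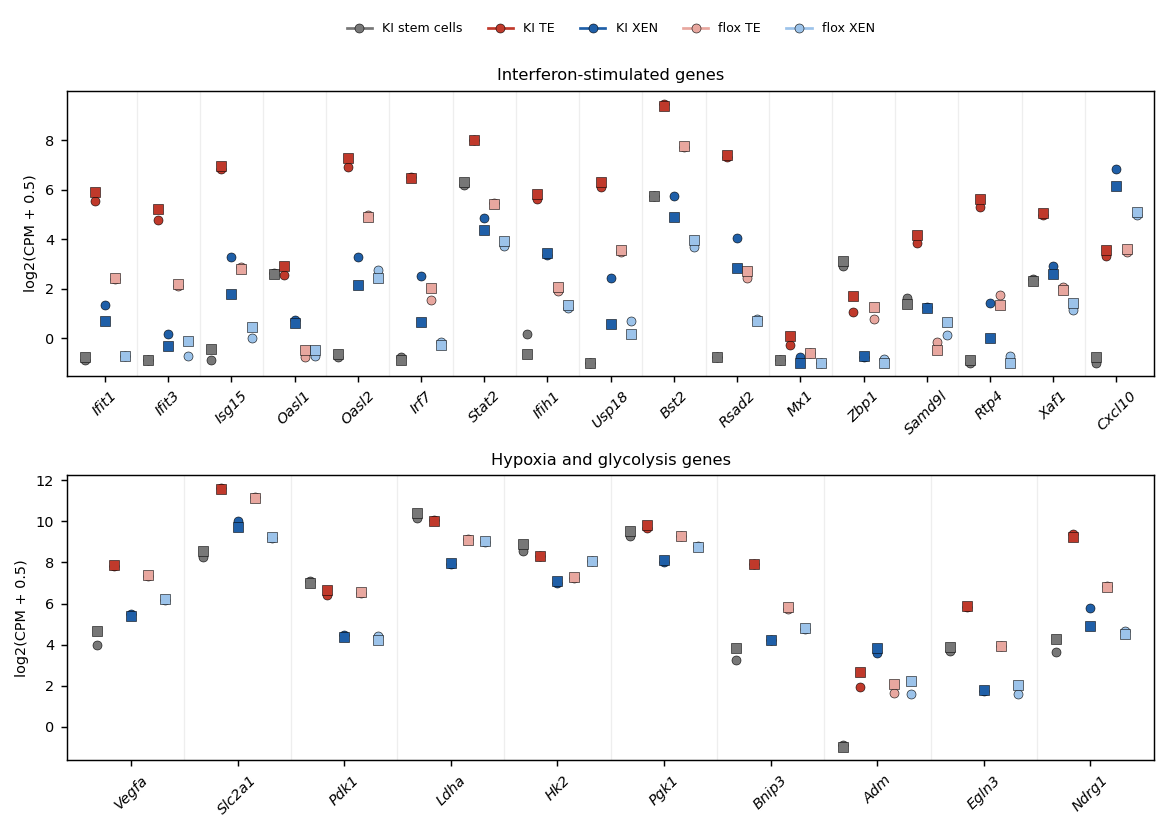
Level of 17 interferon-stimulated genes (top) and 10 hypoxia and glycolysis genes (bottom) in each library as log2(CPM + 0.5), with circles for clone 27 or replicate 1 and squares for clone 48 or replicate 2. KI TE (dark red) lies above KI XEN (dark blue) for every gene except Cxcl10 and Adm.

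Imprinted genes did not share a direction. Of 17, 4 were higher in TE, 9 lower and 4 not called, against 32.3% higher and 30.8% lower over all genes. Of these calls, that of Igf2r (higher) was lost with the 4 KI libraries alone, without KI XEN of clone 27 or without either flox XEN library. That of Peg3 (lower) was lost without either KI TE library. Cdkn1c, a growth inhibitor of the placenta, was at 1314 and 1036 CPM in TE and 309.8 and 196 CPM in XEN (log2 fold change 2.22 ± 0.26, adjusted p = 0.00189) and Phlda2, which limits placental growth, at 102 and 76.8 CPM in TE and 23.6 and 21.3 CPM in XEN. Nnat, Dlk1 and Mest were lower in TE, Nnat at 44.6 and 45.4 CPM in TE and 447 and 564 CPM in XEN. Igf2 overlapped, at 1360.4 and 1270.1 CPM in TE and 1364 and 1330.4 CPM in XEN (called as lower without KI TE of clone 27, adjusted p = 0.0473). Meg3, a non-coding RNA, had reads in clone 27 alone, at 51.5 and 0 CPM in TE and 378 and 0 CPM in XEN, and of the fits tried was called lower in TE with the clone as a block (adjusted p = 7.88e-15).

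The next counts are read against 32.3% of all genes higher in TE and 30.8% lower. Cell cycle genes divided. Of 15, 10 were higher in TE, 1 of them at least 2-fold, and 5 lower, all of them at least 2-fold, and the summed levels of the 15 overlapped between the lineages (2742 and 2573 CPM in TE, 2617 and 2768 CPM in XEN). Mki67, a protein of cycling cells, was at 389.8 and 367 CPM in TE and 216 and 209 CPM in XEN (log2 fold change 0.83 ± 0.05, adjusted p = 2.48e-09). The 5 that were lower were the cyclins Ccnd1 and Ccnd2 and the inhibitors Cdkn1a, Cdkn2a and Cdkn2b, Ccnd2 at 18.2 and 24.5 CPM in TE and 293 and 355 CPM in XEN (log2 fold change -3.92 ± 0.16, adjusted p = 3.54e-07). Of 12 germline genes 7 were lower in TE and 5 not called, with 2 at least 2-fold. Without KI XEN of clone 27 the 7 became 4, since Mael, Taf7l and Hormad1 were not called (adjusted p = 0.0873, 0.203 and 0.0549). Mael and Taf7l were also lost without KI TE of clone 48 and Hormad1 without KI TE of clone 27. Of 7 stress response genes 4 were higher, 2 lower and 1 not called. Of the 4, Ddit4 (0.16) was lost in 5 of the alternatives. Of 7 endothelial and blood genes that passed the filter 2 were higher, 2 lower and 3 not called, and Runx1, a regulator of blood formation that other tissues use too, was at 3.16 and 3.24 CPM in TE and 55.7 and 73.5 CPM in XEN.

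Of the 12 genes with the widest rise in TE, 4 (Fgf8, T, Fgf4 and Fgf17) are described above with the streak genes and 5 with the interferon group (Oas2, Ifit3b, Ifit3, Ifi44 and Mx2). The other 3 were Vrtn, a regulator of vertebral number, with 463 reads over TE and 2 over XEN (ratio 169, 95% exact counting interval 46.6 to 1403), Grin1, a glutamate receptor subunit, with 298 and 2 reads (ratio 109, 95% exact counting interval 29.9 to 905), and C1ql2, a secreted C1q-like protein, at 7.42 and 8.68 CPM in TE and 0.189 and 0 CPM in XEN.

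The 12 genes with the widest fall in TE included Stmn4, Cnn1, Dkk2 and Nts. Stmn4, a stathmin that destabilises microtubules, had 3 reads over TE and 1701 over XEN, at 41.6 and 42.02 CPM, a ratio of 775, 95% exact counting interval 265 to 3761. Cnn1 (calponin) was at 2.54 and 3.20 CPM in TE and 254 and 323 CPM in XEN (log2 fold change -6.65 ± 0.15, adjusted p = 3.81e-11), Dkk2, a Wnt modulator, at 2.04 and 2.10 CPM in TE and 160.5 and 188 CPM in XEN, and Nts, the precursor of neurotensin, at 0.291 and 0.356 CPM in TE and 43.2 and 35.8 CPM in XEN. Col14a1 was at 1.24 and 0.356 CPM in TE and 64.6 and 99.4 CPM in XEN. Calcr (the calcitonin receptor), Megf10 (an engulfment receptor), Zfp536 and C1qtnf3 were at most 0.285 CPM in either KI TE library, and at 12.9 and 17.3, 15.2 and 15.6, 6.08 and 13.3 and 6.32 and 22.9 CPM in KI XEN. Col3a1 and Inhba are given above, and Ppbp is given below.

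The same contrast was made in flox, whose libraries are other than those of KI. There, 10049 of the 15532 genes were called (64.7%). At 2-fold, 4051 genes were called in KI and 4150 in flox, and 2346 of them in both with the same direction, which is 57.9% of the KI genes and 56.5% of the flox genes. Another 88 were called in both with opposite directions (2.17% of the KI genes). Across all genes tested the fold changes had a Pearson r of 0.64; genes are not independent replicates. The test of the difference itself called 5486 genes (35.3%), 2839 with a higher and 2647 with a lower TE over XEN ratio in KI than in flox.

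**Figure D5:**
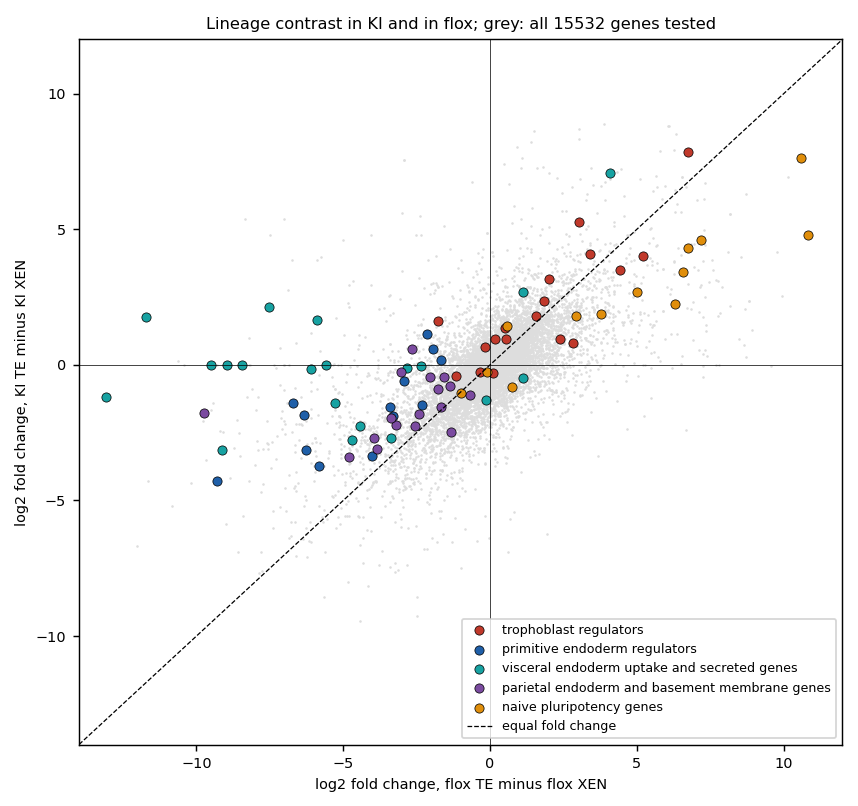
Log2 fold change of TE over XEN in flox (horizontal axis) and in KI (vertical axis) for 15532 genes in grey, with 5 gene lists in colour and a dashed line of equal change. By the test of the difference, 10 of 13 primitive endoderm regulators and 11 of 20 visceral endoderm genes lie above the line and 6 of 13 naive pluripotency genes below it. Lrp2 is the visceral endoderm gene called below the line. Some of these endoderm genes passed the filter only through the flox libraries.

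By group, some genes passed the filter only through the flox libraries. With the 4 KI libraries alone, 11 of 13 primitive endoderm regulators and 11 of 20 visceral endoderm genes passed. A gene kept for its level in flox XEN tends by that choice to a wider fall in flox, so the counts of these lists are descriptions. The TE over XEN ratio was higher in KI than in flox for 10 of the 13 regulators and lower for 0. It was higher for 11 of the 20 visceral endoderm genes and lower for 1, where 35.3% of all genes differed in either direction. The 1 was Lrp2, which fell by 1.30 on the log2 scale in KI and was at -0.14 in flox (difference -1.16 ± 0.14, adjusted p = 7.93e-04), and without KI TE of clone 48 Apoa2 was a second. Among epithelial genes of trophectoderm 8 of 17 had a higher and 6 a lower ratio (5 to 8 and 4 to 9 with 1 library left out), and among retinoic acid pathway genes 2 and 10 of 17 (2 to 4 and 9 to 10). Of 13 naive pluripotency genes 6 had a lower ratio in KI and 1 a higher one; Esrrb was at 166 and 165 CPM in flox TE and 1.40 and 0.843 CPM in flox XEN. Of 18 trophoblast regulators 8 had a higher ratio in KI and 3 a lower one (5 to 10 and 2 to 5 with 1 library left out). Cdx2 was among the 8 (2.24 ± 0.25, adjusted p = 8.55e-06), with 29.02 and 26.2 CPM in flox TE and 2.75 and 4.01 CPM in flox XEN. The 3 were Dlx3, Grhl2 and Ets2, the last not without KI XEN of clone 27 (adjusted p = 0.0831) or flox XEN replicate 1 (0.07). Wnt7b, of the stem cell signalling list, had a lower ratio in KI as well, at 5.60 and 4.01 CPM in flox XEN and 69.2 and 41.9 CPM in KI XEN.

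The 8 genes with the most positive difference included Apob, Afp (the fetal albumin), Apoa1 (an apolipoprotein), Pga5 (a pepsinogen) and Pla2g12b, a phospholipase of lipoprotein secretion. Each of these was at 1 CPM or less in every KI library, where fitted differences rest on few reads and are no measure of size, and Afp was at 48.5 and 43.8 CPM in flox XEN. Without KI TE of clone 48 the differences of Pga5 and Hkdc1 were not called (adjusted p = 1 and 0.931), and that of Apoa1 (0.0425) was lost when any 1 of 6 libraries was left out. Hkdc1, a hexokinase family member, was at 88.03 and 88.1 CPM in flox XEN and 0.283 and 0.308 CPM in KI XEN, and Nostrin, an endocytic adaptor, at 9.90 and 8.06 against 0.236 and 0.205 CPM. Pla2g12b had 20 reads over KI TE and 2 over KI XEN, and its call within KI was lost with the clone as a block (adjusted p = 0.0501), without clone 48 in KI TE (0.186) or KI XEN (0.183), and without either flox XEN library (0.073 and 0.061), while Pga5, with 8 and 0 reads, was called with it (0.0193), with no filter (0.0383) and without KI TE of clone 27 (0.00289).

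Of the 8 with the most negative difference, Ppbp, a platelet chemokine, was at 0.145 and 0.285 CPM in TE and 23.1 and 16.4 CPM in XEN in KI and at 2.15 and 2.75 CPM in TE and 3.20 and 3.53 CPM in XEN in flox (-6.03 ± 0.46, adjusted p = 3.06e-07). Bnipl was not called in KI (0.909 and 0.640 CPM in TE and 1.23 and 1.13 CPM in XEN) and was at 5.83 and 8.32 against 0.200 and 0.369 CPM in flox. Kirrel2 and Rhox4c, a member of a set of near-identical copies and so uncertain, had 0 reads in both flox XEN libraries, so their fitted differences are no measure of size; that of Kirrel2 was not called without KI XEN of clone 48 (adjusted p = 0.0766). Gfra1, the GDNF coreceptor, was lower in TE in KI (0.327 and 0.213 CPM in TE and 2.50 and 2.87 CPM in XEN) and higher in TE in flox (6.39 and 6.21 against 2.20 and 1.74 CPM). Stmn4 was lower in TE in both genotypes and more so in KI (-5.05 ± 0.58, adjusted p = 1.29e-05), a value that rests on 3 reads in KI TE.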

How the data were processed

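RNA was sequenced in 37 of the 100 samples. The authors deposited 1 table per library with read counts and RPKM for 29082 RefSeq transcripts per the file headers. The submitters' processing notes name mm9, STAR, Bowtie2, SICER 1.1 and bcl2fastq without roles, and the counting tool is not given in the sources used here. Read counts were tested; the deposited RPKM values were tabulated and none is printed. Symbols were matched for 28436 transcripts and not for the other 646, and the transcript with most reads over all libraries stood for each of 23109 gene-level entries. Reads of a gene and its antisense partner cannot be told apart without strand.

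The fit used edgeR 4.0.16 (R 4.3.3): TMM scaling, filterByExpr, the robust quasi-likelihood test over 8 libraries in 4 groups of 2, and Benjamini-Hochberg adjustment over 15532 genes. Standard errors were derived from each log2 fold change and its F statistic. Tables and figures used Python 3.11.15, pandas 2.3.3, SciPy 1.17.1 and matplotlib 3.10.9. The steps were tested on simulated data, in which the share of called genes that had not been changed lay above the nominal level, with edgeR as with DESeq2, so counts of called genes may hold more false calls than the threshold states. Pearson correlation of log2 CPM across genes between the libraries of a group was at least 0.9893. The chi-square per degree of freedom between the libraries of a group was 9.68 in KI TE and 10.82 in KI XEN. In flox TE it was 3.99 and in flox XEN 2.76. The fit shares 1 estimate of the spread per gene over the 4 groups, so KI p-values draw on the tighter flox libraries. With the 4 libraries of a genotype alone, 9050 genes were called in KI and 10911 in flox, against 9796 and 10049. The KI numbers are the same lines in both lineages, so they pair the samples, and the correlation of deviations from the group means was 0.236 in KI and -0.01 in flox. Alternatives were DESeq2 1.42.0, RLE scaling, no filter, 4 libraries alone, a replicate block, sums over transcripts, leaving out the 100 most abundant genes and leaving out each library.

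Genes named without a list were the 12 highest and 12 lowest of those called in KI with at least 5 CPM in the higher group and no overlap, and the 8 highest and 8 lowest in the difference from flox, for which no overlap was not required. The groups compared and the lists were chosen with earlier results of these data known. Rhox5, Apoc2 and H19 were not analysed here, and a few genes of the lists are counted but not reported by name.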

Additional observations from a re-analysis of the deposited data

Results flagged for a closer look

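The lineage contrast differed between KI and flox for 5486 genes by the interaction test (edgeR, adjusted p under 0.05). Among the genes named or listed, 8 were called in both genotypes with opposite directions and changes of at least 2-fold, and the values below are the KI minus flox differences in log2 fold change, each with its standard error. Explanations were not tested.

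Eomes was higher in TE in KI and lower in flox, a difference of 3.37 ± 0.23. Slc16a1, a lactate and pyruvate transporter of the placenta, was at 302 and 283 CPM in KI TE against 114 and 110.2 CPM in KI XEN, and at 181 in both flox TE libraries against 657 and 651 CPM in flox XEN, a difference of 3.24 ± 0.07. Otx2 differed by 4.97 ± 0.55. Samd9l, an interferon-stimulated gene, was at 13.7 and 17.6 CPM in KI TE and under 2 CPM in all other TE and XEN libraries, a difference of 4.46 ± 0.55; its call in flox was lost with the 4 flox libraries alone and without replicate 2 of flox TE or flox XEN.

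Gfra1 (-4.96 ± 0.51) and Rab25, an epithelial trafficking GTPase (-4.84 ± 0.67), were lower in TE in KI and higher in flox. Rab25 was at 0.291 and 0.747 CPM in KI TE and 1.27 and 1.18 CPM in KI XEN, and its call in KI was lost without KI TE of clone 27 (adjusted p = 0.245) or either KI XEN library (0.106 and 0.0673), without either flox TE library (0.0639 and 0.0569), with the 4 KI libraries alone (0.1) and with sums over transcripts (0.0531), so its opposite direction in KI is weakly supported. That of Pla2g12b was lost in 5 settings, the block among them. Pla2g12b (9.63 ± 1.33) and Dscam, a cell adhesion molecule (7.77 ± 1.05), were higher in TE in KI and lower in flox, and both values rest on few reads in KI. Dscam was at 0.654 and 1.103 CPM in KI TE, 0.189 and 0 CPM in KI XEN, and 7.50 and 6.54 CPM in flox XEN.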

How the results depend on the processing

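Counts of called genes stayed within 1.5 times under each alternative run. With a library left out, KI had 8782 to 9556 called genes, flox 8508 to 10382 and the difference 4092 to 5532. Under the other alternatives the ranges were 9050 to 9922, 9446 to 10911 and 4999 to 5950. With the clone or replicate as a replicate block the counts were 9922, 10226 and 5950. A fit of the 4 libraries of 1 genotype alone cannot give the difference. Of the 9796 genes called in KI, 7560 were called in the same direction under all 15 alternatives, as were 7412 of 10049 in flox and 3344 of 5486 under the 14 that give the difference.

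Of 395 genes named or listed, 320 had the same call in KI under every alternative, and 0 of the calls of the fit reported reversed. The block ended the calls of Pla2g12b (adjusted p = 0.0501), Hoxa11 (0.0578) and Hoxd8 (0.0505). It added 10 calls, among them those of Pga5 (0.0193), Wnt3 (0.0436), Tgm2 (0.027), Spry4 (0.0458), Il17rd (9.07e-08), Sp5 (0.00187), Grem1 (0.047), Slc22a18 (0.032) and Meg3 (7.88e-15), and changed no other of these calls in KI. Of the list medians, 363 stayed within the spread between clones, 40 moved and 2 of those above 0.1 in size reversed: with 1 library left out, primitive streak and mesoderm genes ranged from -0.25 (without KI TE of clone 48) to 1.40 (without KI TE of clone 27), and endothelial and blood genes from -1.13 (without KI XEN of clone 48) to 0.68 (without KI XEN of clone 27). The cause was not tested. Calls of genes under 1 CPM are limited by depth. DESeq2 gave no adjusted p for the difference of 2 genes, which have no value there.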

Other observations

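Some genes separated the clones in every state. By more than 1.5 on the log2 scale in stem cells, TE and XEN alike, 10 genes were higher in clone 27 and 1 (Peg13) in clone 48. The 10 include 3 neighbouring non-coding RNAs of the imprinted Dlk1 region, Meg3, Rian and Mirg, and 4 Y-linked genes. Rian was at 239 and 0.28 CPM in the stem cells of clones 27 and 48, 37.8 and 0.36 CPM in TE and 319 and 0.05 CPM in XEN. Kdm5d, a Y-linked histone demethylase, was at 36.5 and 0.70, 25.0 and 1.32, and 27.6 and 1.33 CPM.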
